A study of Mus musculus with 16 samples.

Results

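The 10 genes described here were taken by symbol from the 55385 rows of a table of read counts. They are Gzma, Gzmb and Nkg7, which encode proteins of cytotoxic granules; Ncr1 and Klra1, which encode receptors of natural killer (NK) cells; Ccl5, which encodes a chemokine; and Cd3d, Cd3e, Cd8a and Trbc2, which encode parts of the T cell receptor complex and the CD8 coreceptor. They were chosen by name after the read counts of these same 16 libraries, and their differences between genotypes and between libraries, had been seen. Their levels are therefore given as a description, without a test. In the comparisons of genotypes with edgeR, the number of these genes past a threshold is set beside the share of all genes that passed it.

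The libraries were made from CD11b+ cells pulled from the brains of female mice with magnetic beads, at 20 weeks of age, after perfusion and removal of the meninges and choroid plexus. There were 16 libraries, 4 of each of 4 genotypes. WT mice carried both Card9 alleles and no transgene, Card9-/- mice lacked Card9 in the germline and so in every cell type, 5xFAD mice carried both Card9 alleles with human transgenes bearing familial Alzheimer's disease mutations, driven by the neuronal Thy1 promoter, and Card9-/-5xFAD mice carried the transgenes without Card9. The founders were 5xFAD, Card9-/- and C57BL/6J mice that were crossed with one another. Reads counted on genes numbered 2970148 to 19333325 per library (median 7944265), and 3 counts, taken here as the detection floor, correspond to 0.124 to 1.20 CPM depending on the library (CPM is a gene's count divided by the TMM-scaled library size in megareads). Nothing in the labels says whether each library came from 1 mouse, so a p-value measures only the spread between these libraries.

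NK cells kill infected or transformed cells without prior priming. They store perforin and granzymes, the serine proteases encoded by Gzma and Gzmb, in granules that they release onto a target, and a balance of activating receptors such as NKp46 (Ncr1) and inhibitory receptors of the Ly49 family (Klra1 encodes Ly49A), which bind MHC class I, sets whether they do so. Cytotoxic CD8+ T cells use the same granules, but recognize peptide on MHC class I through a T cell receptor whose β chain constant region Trbc2 encodes and whose signal passes through the CD3 chains (Cd3d, Cd3e), with CD8 (Cd8a) as coreceptor. Both cell types secrete CCL5, which attracts leukocytes. Many mouse NK cells carry CD11b on their surface, whereas most resting T cells do not, and few of either are found in the healthy brain.

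The data went partly against the T cell side of the description, since 2 of its 4 genes were at or near 0. Cd3e, the CD3 chain by which T cells are usually defined, had 0 to 2 counts per library and 5 in all 16 together. Cd8a had 0 to 3 counts per library and 11 in all, and was at 0 in every one of the 8 libraries without Card9. Of 30 further T cell genes listed, 13 passed the filter on low counts, and Trdc, Themis, Bcl11b and Foxp3 never exceeded 3 counts. Trac, the constant region of the T cell receptor α chain, had 0 to 12 counts, with 3 or fewer in 13 of 16 libraries. By contrast 25 of 30 further NK and cytotoxic lymphocyte genes passed. Some T cell genes were detected, among them Cd3g (0 to 15 counts), Cd8b1 (0 to 19), Cd2 (1 to 75) and Trbc1 (1 to 26). Cd3d (3 to 28) and Trbc2 (2 to 26) had reads in every library. Others of the 30 had more reads, with Il7r at 70 to 585 counts, Pdcd1 at 23 to 1268 and Ms4a4b at 12 to 186. Summed, the 30 T cell genes reached 83.7 to 231 CPM per library, and the 30 NK and cytotoxic genes 37.1 to 172 CPM. Of the 10 genes, Ccl5, Gzma and Nkg7 had the most reads, while Ncr1 (1 to 177 counts) and Klra1 (1 to 47) reached as low as Cd3d and Trbc2. The 3 granule genes with Ncr1 and Klra1 are called NK and granule genes below.

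**Figure D1:**
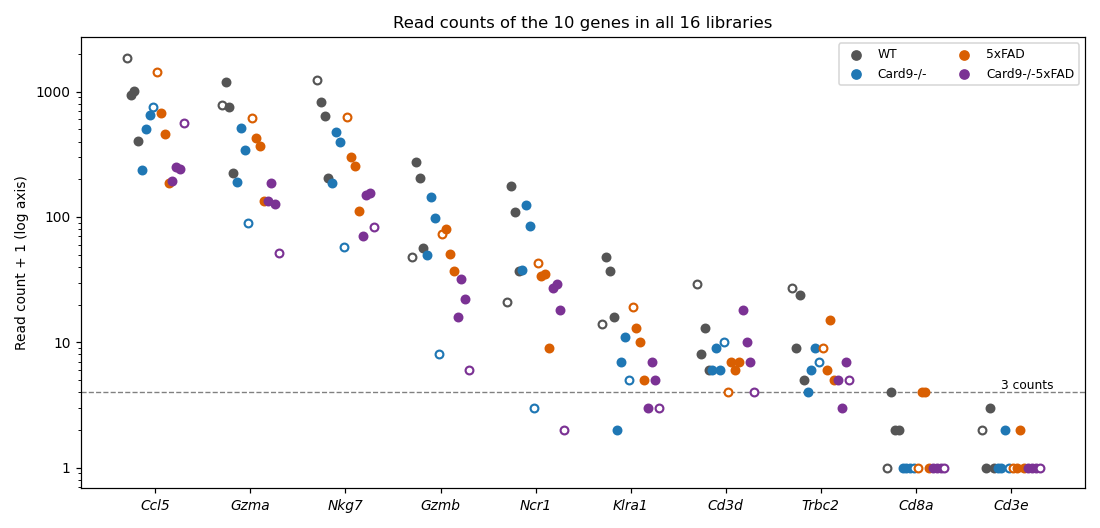
Read counts plus 1 (log axis) of each of the 10 genes, 1 point per library, colored by genotype. Open points are the 4 libraries of lowest summed microglia genes, and the dashed line marks 3 counts. Ccl5, Gzma and Nkg7 had at least 51 counts in every library, while Cd8a and Cd3e had at most 3.

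The promoters of the granule and NK receptor genes are shown because the levels of these genes varied together across the libraries. Ccl5 and Trbc2 also varied with some of them. RefSeq (GRCm38.p6, the assembly behind mm10) had an entry for 8 of the 10 genes. It had none for Ccl5 and Trbc2. The 250 bases before the RefSeq start are printed 5′ to 3′ on the strand of the gene, with each match to TGTGGT or its reverse complement ACCACA, the core sequence bound by RUNX transcription factors, in capitals.
Gzma, chr13:113100982-113101231, minus strand: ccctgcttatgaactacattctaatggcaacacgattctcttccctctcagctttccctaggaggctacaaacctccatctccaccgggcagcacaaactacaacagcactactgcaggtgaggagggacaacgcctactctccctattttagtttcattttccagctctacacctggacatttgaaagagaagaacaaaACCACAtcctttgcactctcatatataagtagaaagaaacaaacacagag
Gzmb, chr14:56262335-56262584, minus strand: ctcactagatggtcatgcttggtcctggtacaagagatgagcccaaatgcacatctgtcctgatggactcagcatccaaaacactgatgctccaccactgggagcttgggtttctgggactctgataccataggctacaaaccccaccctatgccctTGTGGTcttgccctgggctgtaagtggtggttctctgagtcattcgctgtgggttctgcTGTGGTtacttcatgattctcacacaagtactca
Nkg7, chr7:43436888-43437137, plus strand: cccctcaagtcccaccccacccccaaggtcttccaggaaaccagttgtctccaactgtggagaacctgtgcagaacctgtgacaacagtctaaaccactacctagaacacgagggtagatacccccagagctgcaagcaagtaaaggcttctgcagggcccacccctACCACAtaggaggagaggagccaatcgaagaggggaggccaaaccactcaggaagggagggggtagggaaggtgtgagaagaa
Ncr1, chr7:4337465-4337714, plus strand: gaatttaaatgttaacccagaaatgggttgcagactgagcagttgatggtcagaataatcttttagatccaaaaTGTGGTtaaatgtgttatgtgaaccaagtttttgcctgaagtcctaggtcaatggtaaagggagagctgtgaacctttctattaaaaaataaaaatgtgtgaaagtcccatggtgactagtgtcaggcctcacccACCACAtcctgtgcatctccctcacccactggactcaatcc
Klra1, chr6:130386875-130387124, minus strand: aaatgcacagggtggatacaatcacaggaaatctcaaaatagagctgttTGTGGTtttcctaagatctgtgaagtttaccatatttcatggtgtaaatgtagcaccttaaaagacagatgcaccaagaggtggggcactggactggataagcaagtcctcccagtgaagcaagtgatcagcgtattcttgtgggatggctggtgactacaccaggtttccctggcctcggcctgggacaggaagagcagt
All 5 held the hexamer, Gzmb and Ncr1 at 2 positions. It began 50 bases upstream of the start in Gzma, 34 and 93 in Gzmb, 83 in Nkg7, 41 and 176 in Ncr1 and 201 in Klra1. The windows of Cd3d, Cd3e and Cd8a did not hold it. Over all 32851 RefSeq windows of 250 bases, 14.0% held it on either strand. The T-box core GGTGTG (reverse complement CACACC), bound by factors such as T-bet and Eomes, was found in Nkg7, 13 bases upstream, and in Cd3d, 92 bases upstream, and in 16.3% of all windows. The letters TGTG are shared by both motifs, so that matches can overlap. The hexamer was chosen after these windows had been read, so its count among these genes is a description and no site of binding.

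Between genes, levels can be set side by side only per length, here as CPM per kilobase of the union of annotated exons (GENCODE M21), averaged over the 16 libraries. Ccl5 was the most abundant at 106 CPM per kilobase, higher than Nkg7 (51.0) in 16 of 16 libraries. Nkg7 and Gzma (46.8) could not be ordered, since each was higher in 8 libraries. Gzmb (5.50) lay below Gzma in all 16 and above Ncr1 (3.12) in 15. Trbc2 (1.76), Klra1 (0.818) and Cd3d (0.672) formed the low end, and Cd8a (0.0245) and Cd3e (0.00974) were at or near 0. Of the 9 steps in this order, only that from Gzma to Gzmb was wider than the larger of the 2 SDs over libraries. Klra1 belongs to a family of near-identical genes and Trbc2 has a near-identical copy in Trbc1, so that the division of reads within each family is uncertain. The annotation places 2 small genes over Cd3e, and the strand setting of the counting is not given in the sources used here.

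In 4 libraries the summed level of the 12 microglia genes listed was low. These were WT replicate 1, Card9-/- replicate 4, 5xFAD replicate 1 and Card9-/-5xFAD replicate 4, 1 of each genotype. Their microglia genes summed to 18320 to 21100 CPM against 23280 to 38570 in the other 12 libraries. P2ry12, Tmem119, Olfml3, Fcrls and Gpr34 were in each genotype lowest in this library, but Aif1 was highest in it in all 4 genotypes (2564 to 6034 CPM against 331.6 to 1966 in the others) and Itgam, which encodes CD11b, in 3 of 4. In the same 4 libraries the 10 neutrophil genes summed to 2107 to 6314 CPM (494.6 to 2420 in the others) and the 6 red blood cell genes to 47.0 to 133 CPM (1.18 to 30.3). Because these 4 libraries weigh on several of the genes below, values are also given without them. The targeted gene did not separate the genotypes: Card9 stood at 13.6 to 51.4 CPM in WT, 16.7 to 34.8 in Card9-/-, 15.6 to 33.5 in 5xFAD and 9.73 to 33.7 in Card9-/-5xFAD. The counts run over the whole gene, and which exons the allele lacks is not given in the sources used here, so they do not check the labels.

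Gzma encodes granzyme A, a tryptase. In WT it stood at 138, 102, 83.5 and 23.9 CPM in replicates 1 to 4. In Card9-/- the values were 22.8, 21.1, 20.3 and 28.8 CPM. WT replicates 1 to 3 were thus above every Card9-/- library, and WT replicate 4 lay among them. In 5xFAD the values were 93.4, 58.8, 65.7 and 18.0 CPM, and in Card9-/-5xFAD 13.1, 21.3, 21.9 and 20.4 CPM. The same picture held in the transgenic mice, with 5xFAD replicates 1 to 3 above all libraries without Card9 and 5xFAD replicate 4 below most of them. The means were 86.9 ± 47.7 CPM in WT, 23.3 ± 3.83 in Card9-/-, 59.0 ± 31.2 in 5xFAD and 19.2 ± 4.09 in Card9-/-5xFAD (SD, n = 4). The spread was wider in the genotypes with Card9, in both of which replicate 4 was the lowest.

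Gzmb encodes granzyme B, the protease that sets off caspases in the target. In WT it stood at 8.28, 23.3, 22.6 and 5.99 CPM in replicates 1 to 4, and in Card9-/- at 5.88, 5.92, 5.81 and 2.29 CPM. All 4 Card9-/- values lay below the lowest WT value, though the highest of them, 5.92 CPM, was close to it. In 5xFAD the values were 10.9, 10.8, 8.99 and 4.90 CPM, and in Card9-/-5xFAD 1.48, 3.54, 3.65 and 2.002 CPM, again with no overlap. Of the 8 genes that passed the filter, only Gzmb was lower without Card9 in both pairs of genotypes with no overlap. Taken singly, 1.6% of all genes were lower without overlap in Card9-/- against WT and 0.923% in Card9-/-5xFAD against 5xFAD. The share of all genes that were so in both pairs was not counted, so nothing particular to Gzmb is read from this. The means were 15.04 ± 9.18 CPM in WT, 4.97 ± 1.79 in Card9-/-, 8.91 ± 2.82 in 5xFAD and 2.67 ± 1.09 in Card9-/-5xFAD.

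Nkg7 encodes a granule membrane protein needed for efficient release of the granules. In WT it stood at 219, 70.1, 70.8 and 21.7 CPM in replicates 1 to 4, and in Card9-/- at 22.2, 19.7, 23.7 and 18.7 CPM. WT replicate 4 again lay within the Card9-/- range and replicate 1 was the highest of all 16 libraries. In 5xFAD the values were 94.3, 41.3, 45.3 and 15.1 CPM, and in Card9-/-5xFAD 6.91, 17.0, 26.9 and 32.8 CPM. The transgenic genotypes overlapped, since 5xFAD replicate 4 was below 3 of the 4 Card9-/-5xFAD libraries. The means were 95.4 ± 85.5 CPM in WT, 21.1 ± 2.28 in Card9-/-, 49.0 ± 33.1 in 5xFAD and 20.9 ± 11.4 in Card9-/-5xFAD.

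Ncr1 encodes NKp46, an activating receptor that is among the most specific NK cell markers. In WT it stood at 3.52, 15.2, 11.9 and 3.85 CPM in replicates 1 to 4, and in Card9-/- at 4.44, 5.09, 4.92 and 0.654 CPM. Only WT replicates 2 and 3 were above the Card9-/- libraries. In 5xFAD the values were 6.37, 4.52, 6.12 and 1.09 CPM, and in Card9-/-5xFAD 2.57, 3.20, 2.95 and 0.401 CPM. The low values in replicate 4 of Card9-/- and of Card9-/-5xFAD rest on 2 counts and 1 count, in the 2 shallowest libraries. Klra1 stood at 2.29, 4.02, 3.97 and 1.61 CPM in WT and at 0.120, 0.248, 0.593 and 1.31 CPM in Card9-/-, without overlap. In 5xFAD the values were 2.73, 1.65, 1.62 and 0.545 CPM, and in Card9-/-5xFAD 0.197, 0.685, 0.695 and 0.801 CPM. These are few reads, between 1 and 10 per library without Card9 and between 4 and 47 with it.

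Ccl5, the chemokine gene, had another pattern. In WT it stood at 328, 80.0, 112 and 42.9 CPM in replicates 1 to 4, and in Card9-/- at 28.6, 20.9, 38.5 and 248 CPM. In 5xFAD the values were 218, 92.4, 82.9 and 25.5 CPM, and in Card9-/-5xFAD 18.95, 28.5, 41.9 and 224 CPM. The highest library of each genotype was the 1 with the lowest microglia sum, at 218 to 328 CPM, against 18.95 to 112 CPM in the other 12 libraries. Without those 4 libraries the means were 78.4 ± 34.7 CPM in WT, 29.3 ± 8.84 in Card9-/-, 66.9 ± 36.2 in 5xFAD and 29.8 ± 11.5 in Card9-/-5xFAD (SD, n = 3), and WT and Card9-/- no longer overlapped, as for 8.46% of all genes without these libraries. Dendritic cells, monocytes and microglia can also make Ccl5, so that it does not mark lymphocytes on its own.

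Among the T cell receptor and coreceptor genes, Cd3d stood at 4.93, 0.599, 1.32 and 0.535 CPM in WT and at 0.600, 0.331, 0.296 and 2.94 CPM in Card9-/-, in replicates 1 to 4. In 5xFAD it was at 0.455, 0.823, 0.899 and 0.817 CPM, and in Card9-/-5xFAD at 1.68, 1.03, 1.04 and 1.20 CPM. Its order between the transgenic genotypes was the reverse of that of the granule genes, without overlap, but the values rest on 3 to 6 counts in 5xFAD and 3 to 17 in Card9-/-5xFAD. Trbc2 stood at 4.58, 0.685, 2.54 and 0.428 CPM in WT, at 0.360, 0.207, 0.474 and 1.96 CPM in Card9-/-, at 1.21, 0.685, 2.52 and 0.545 CPM in 5xFAD and at 0.395, 0.228, 1.04 and 1.60 CPM in Card9-/-5xFAD. All pairs of genotypes overlapped for Trbc2. The 11 counts of Cd8a came from WT (5) and 5xFAD (6) and the 5 counts of Cd3e from WT (3), Card9-/- (1) and 5xFAD (1). No library held more than 3 counts of either, so that no difference could be detected at this depth and no fold is given.

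**Figure D2:**
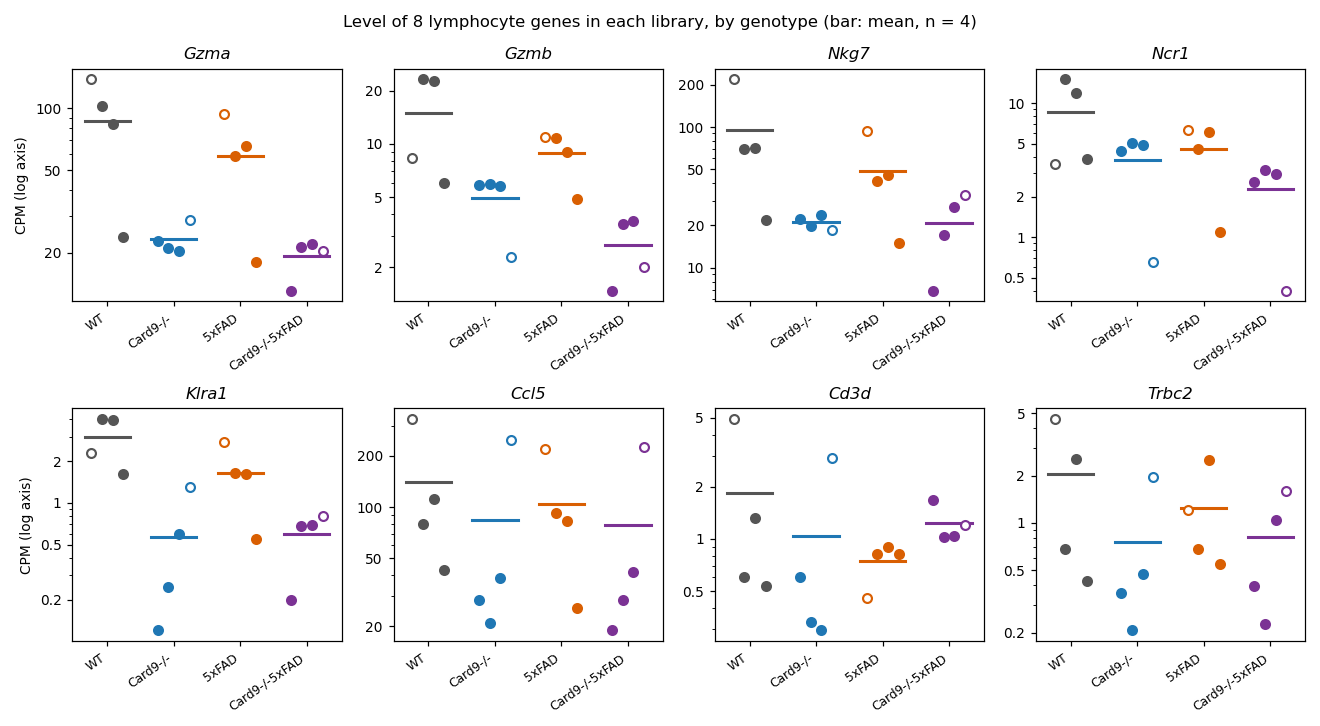
CPM (log axis) of the 8 genes that passed the filter on low counts, by genotype, with replicates 1 to 4 from left to right and a bar for the mean (n = 4). Open points are the 4 libraries of lowest summed microglia genes. Gzma, Gzmb, Nkg7 and Klra1 were mostly high in WT and 5xFAD replicates 1 to 3, whereas the highest Ccl5 value of every genotype is an open point.

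Of the 24 steps between genotypes neighboring in the order of means, over the 8 genes that passed, 5 were wider than the larger of the 2 SDs. These were the step from 5xFAD to Card9-/- for Gzma, those from 5xFAD to Card9-/- and from Card9-/- to Card9-/-5xFAD for Gzmb, and those from WT to 5xFAD and from 5xFAD to Card9-/-5xFAD for Klra1. For Gzma, Gzmb, Nkg7, Ncr1 and Ccl5 the order of means was WT, 5xFAD, Card9-/-, Card9-/-5xFAD. Whether fewer NK cells or less of these RNAs per cell lay behind a lower level cannot be told apart in bulk RNA.

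The comparisons of Card9-/- with WT and of Card9-/-5xFAD with 5xFAD ask what differed with the loss of Card9, without and with the 5xFAD transgenes. edgeR's quasi-likelihood test was fitted to all 14513 genes that passed the filter, among them 8 of the 10 genes (not Cd3e and Cd8a). The 10 genes were chosen with these differences known. The counts of them set beside shares of all genes, here and below, are therefore a description. In Card9-/- relative to WT, the fitted log2 fold change was -1.91 ± 0.48 (SE) for Gzma, -1.57 ± 0.48 for Gzmb, -2.17 ± 0.63 for Nkg7, -2.63 ± 0.66 for Klra1 and -1.14 ± 0.65 for Ncr1. For Ccl5 it was -0.76 ± 0.93, for Cd3d -1.09 ± 0.79 and for Trbc2 -1.73 ± 0.87. The NK and granule genes were therefore between 2.21-fold (Ncr1) and 6.17-fold (Klra1) lower in the fit. The median of the 8 was -1.65, with 0.11 over all genes tested. None of the 8 passed a false discovery rate (FDR) of 0.1, nor did any of the 14513 genes (percent called 0.0%), 4 of the 8 had an unadjusted p under 0.05 with a lower level (2.74% of all genes), and DESeq2 called 0 of these genes and 5 of all genes. For 2 of the 8, Gzmb and Klra1, Card9-/- lay below WT without overlap, as for 1.6% of all genes, and for 0 it lay above WT (1.06%). All 8 were fitted below 0, as were 40.5% of all genes.

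In the transgenic mice the fitted log2 fold change of Card9-/-5xFAD against 5xFAD was -1.62 ± 0.48 for Gzma, -1.72 ± 0.50 for Gzmb, -1.24 ± 0.62 for Nkg7, -1.53 ± 0.68 for Klra1 and -0.91 ± 0.68 for Ncr1. The remaining values were -0.43 ± 0.92 for Ccl5, 0.73 ± 0.80 for Cd3d and -0.77 ± 0.89 for Trbc2. All but Cd3d were below 0 (38.0% of all genes were), with a median of -1.08 against 0.14 over all genes. None of the 8, and none of the 14513 genes, passed the FDR (percent called 0.0%), 3 of the 8 had an unadjusted p under 0.05 with a lower level (1.43% of all genes), and DESeq2 called 0 of these genes and 2 of all genes. Gzmb was lower without overlap (0.923% of all genes) and Cd3d higher without overlap (0.972%).

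Averaged over transgene status, with 8 libraries without Card9 against 8 with it, the fitted log2 fold changes were -1.76 ± 0.34 for Gzma, -1.65 ± 0.34 for Gzmb, -1.71 ± 0.44 for Nkg7, -2.08 ± 0.47 for Klra1 and -1.03 ± 0.47 for Ncr1, and -1.25 ± 0.62 for Trbc2, -0.59 ± 0.65 for Ccl5 and -0.18 ± 0.56 for Cd3d. Of the 64 pairs of 1 library without Card9 and 1 with it, the former was lower in 61 for Gzmb, 59 for Klra1, 56 for Gzma, 53 for Nkg7, 50 for Ncr1, 49 for Trbc2, 46 for Ccl5 and 29 for Cd3d. No gene of the 8 separated all 8 libraries without Card9 from all 8 with it, and of all genes 0.0138% did so with a lower and 0.00689% with a higher level. All 8 were fitted below 0, as were 37.6% of all genes. None passed the FDR (0.0276% of all genes did), the lowest adjusted p being 0.162 for Gzma in edgeR's test, and 5 of the 8 had an unadjusted p under 0.05 with a lower level (5.04% of all genes). DESeq2 called 0, but its filter left an adjusted p for only 1 of the genes. Gzma passed when WT replicate 4 or 5xFAD replicate 4 was left out, or without a filter on low counts, and Gzmb passed with the replicate number as a block (0.0134% to 0.053% of all genes passed under these settings). The interaction of Card9 and transgenes was past the threshold for 0 of the 8 genes and of all 14513 (percent called 0.0%), with 0 of the 8 at an unadjusted p under 0.05 and a negative value (0.386% of all genes), and 1 of the 8 fitted below 0 (47.6%).

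The 4 libraries of low microglia sum changed these values by unequal amounts. Without them the averaged log2 fold change was -1.53 for Gzma, -1.55 for Gzmb, -1.17 for Nkg7, -2.25 for Klra1 and -0.76 for Ncr1, while that of Ccl5 went from -0.59 to -1.30, and none passed the FDR. Cd3d and Trbc2 then missed the filter on low counts. WT replicate 1 alone decided the sign for some of the others. Without it the difference of Card9-/- from WT was 0.01 for Cd3d and 0.07 for Ccl5. The signs of Gzma, Gzmb, Nkg7, Klra1 and Ncr1 in the 3 Card9 comparisons stayed below 0 in all 270 alternative values. These covered other size factors, each library left out in turn and the 4 libraries left out together. They reuse the same libraries, and the genes were chosen with these differences known, so the stable sign is a description.

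**Figure D3:**
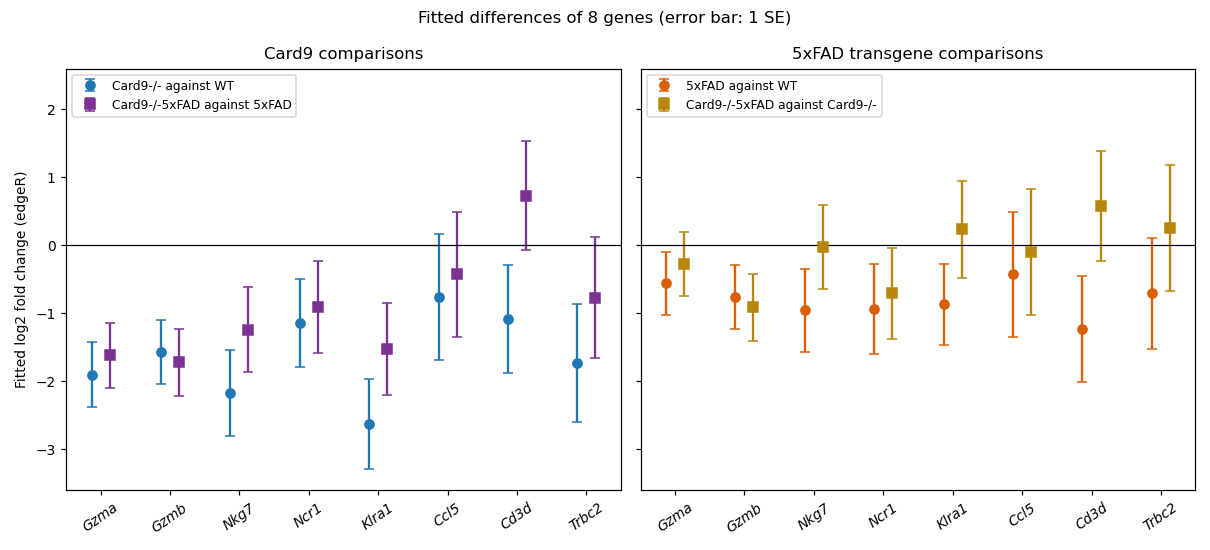
Fitted log2 fold change of the 8 genes that passed the filter, with error bars of 1 SE, for the Card9 comparisons at left and the transgene comparisons at right. The granule and NK receptor genes lay between -2.63 and -0.91 in the Card9 comparisons, and no point was past an FDR of 0.1.

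The comparisons of 5xFAD with WT and of Card9-/-5xFAD with Card9-/- ask what differed with the 5xFAD transgenes. Against WT, 5xFAD libraries had log2 fold changes of -0.56 ± 0.47 for Gzma, -0.76 ± 0.47 for Gzmb, -0.96 ± 0.61 for Nkg7, -0.94 ± 0.66 for Ncr1, -0.87 ± 0.60 for Klra1, -0.43 ± 0.92 for Ccl5, -1.23 ± 0.78 for Cd3d and -0.71 ± 0.81 for Trbc2. All 8 were below 0, as were 61.1% of all genes, and their median was -0.81 against -0.15. In Card9-/-5xFAD against Card9-/- the values ran from -0.91 ± 0.49 (Gzmb) to 0.58 ± 0.81 (Cd3d) with a median of -0.06, against -0.15 over all genes, and 5 of the 8 were below 0 (60.6% of all genes). None of the 8 passed in either comparison, where 2.09% and 1.97% of all genes did, none had an unadjusted p under 0.05 with a lower level (5.72% of all genes in each), and DESeq2 called 0 of these genes. No pair of groups was without overlap for any of the 8, while 3.69% and 3.48% of all genes were lower, and 4.35% and 3.53% higher, without overlap. Adding each library's slope of expression on transcript length as a covariate, an alternative chosen after the data were seen, put Ccl5, Klra1 and Nkg7 past the FDR in 5xFAD against WT, at -1.58, -1.62 and -1.53, with 7.37% of all genes past it under that setting.

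The NK and granule genes also varied together among libraries. Over the 16 libraries the Spearman correlation of their CPM, for the 10 pairs among Gzma, Gzmb, Nkg7, Ncr1 and Klra1, ran from 0.506 to 0.882 with a median of 0.768. With the same 5 genes, Ccl5 ran from 0.05 to 0.75 (median 0.706) and Trbc2 from 0.05 to 0.7 (median 0.606). Cd3d ran from -0.515 to 0.132 (median 0.0265). Both values of 0.05 were with Ncr1. Gzma, Nkg7 and Klra1 correlated with Ccl5 at 0.706 to 0.75, and with Ncr1 at 0.506 to 0.588. Ccl5 and Trbc2 correlated with each other at 0.862, so close covariation was not limited to the NK and granule genes. All libraries share the differences of genotype, depth and makeup described above, so that these values describe the libraries and were not tested.

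Within a library the genes did not keep a fixed ratio. In the 12 other libraries Gzma was 3.50 to 8.87 times Gzmb, and in the 4 libraries of low microglia sum 8.56 to 16.7 times. Ccl5 was 0.782 to 1.91 times Gzma in the 12 and 2.33 to 10.98 times in the 4. Ncr1 was 0.0606 to 0.242 times Gzma in the 12 and 0.0196 to 0.0682 times in the 4. Thus Ccl5 was high relative to Gzma in all 4 libraries, without overlap with the 12. For Gzmb and Ncr1 the ranges overlapped, with lower medians relative to Gzma in the 4. The median of Gzma to Gzmb was 11.4 against 4.19, and that of Ncr1 to Gzma 0.0241 against 0.149. Their exon unions are 960 bases for Ccl5, 1006 for Gzma, 1436 for Gzmb and 1540 for Ncr1, and the slope of log expression on log transcript length was negative in all 4 (-0.211 to -0.115), but was also negative in 5xFAD replicates 2 and 3 and Card9-/-5xFAD replicate 3 (-0.139 to -0.115). The part of transcript length and of other cells in these ratios was not tested.

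**Figure D4:**
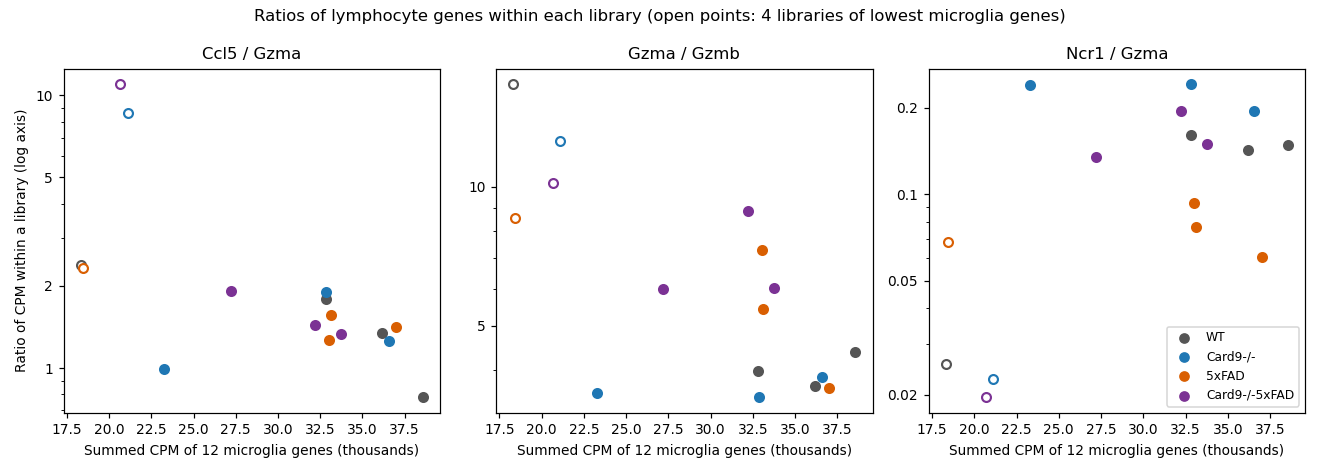
Ratio of the CPM of 2 genes within each library (log axis) against the summed CPM of 12 microglia genes, 1 point per library, colored by genotype. The 4 open points, of low microglia sum, hold the 4 highest Ccl5 to Gzma ratios (2.33 to 10.98).

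The 60 further T cell, NK and cytotoxic lymphocyte genes were written from general knowledge with earlier results of these data known, and 38 passed the filter. In Card9-/- against WT, in Card9-/-5xFAD against 5xFAD and in the average, 0 of the 38 passed the FDR in edgeR's test. By DESeq2 the count was 0 as well, with no adjusted p for any of them in the average. The 25 NK and cytotoxic genes had medians of -0.61, -0.83 and -0.81 in these comparisons, and 24, 23 and 24 of the 25 were below 0, as were 40.5%, 38.0% and 37.6% of all genes. At an unadjusted p under 0.05, 6, 8 and 11 of them were lower (2.74%, 1.43% and 5.04% of all genes) and 0 higher (1.37%, 1.1% and 4.07%). The 13 T cell genes had medians of -0.40, -0.33 and -0.24, with 2, 2 and 3 lower and 1, 0 and 1 higher at that p, where the same shares of all genes apply. Klrd1 (CD94, the partner chain of NKG2 receptors), Klrk1 (NKG2D) and Sh2d1b1 (the signaling adaptor EAT-2) had the highest mean CPM of the NK genes, a scale that does not allow for length. Klrk1 stood at 11.9 ± 4.39 CPM in WT, 6.87 ± 2.18 in Card9-/-, 5.38 ± 3.39 in 5xFAD and 2.93 ± 0.90 in Card9-/-5xFAD, and did not pass in any comparison.

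With the transgenes, 2 of the 38 rose and 0 fell, in both comparisons (2.09% of all genes passed in 5xFAD against WT and 1.97% in Card9-/-5xFAD against Card9-/-). Cd5, an inhibitory receptor of T cells and some B cells, went from 0.979 ± 0.616 CPM in WT to 10.7 ± 2.70 in 5xFAD (log2 fold change 3.48 ± 0.43, edgeR adjusted p = 0.000313) and from 0.807 ± 0.264 in Card9-/- to 8.15 ± 0.38 in Card9-/-5xFAD (3.27 ± 0.43, adjusted p = 0.00055). Pdcd1, which encodes the checkpoint receptor PD-1, went from 9.86 ± 4.96 to 111 ± 57.2 CPM (3.48 ± 0.63, adjusted p = 0.00693) and from 9.43 ± 3.96 to 82.9 ± 49.2 CPM (3.13 ± 0.62, adjusted p = 0.0167). None of Gzma, Gzmb, Nkg7, Ncr1 and Klra1 was past the threshold in either comparison. Cd3e and Cd8a were at 0 to 3 counts in all 16 libraries, with and without the transgenes. Which cells carried the rise of Cd5 and Pdcd1 was not tested. Il7r and Ms4a4b, which with Pdcd1 had the highest mean CPM of the T cell list, did not pass here. In Card9-/-5xFAD against Card9-/-, Il7r was called lower with DESeq2 (4.82% of all genes called) and without Card9-/-5xFAD replicate 4 (2.41%). It was also called lower there without the 4 libraries of low microglia sum (16.7%) and with the length covariate (6.25%). In 5xFAD against WT, Il7r was called lower under these last 2 settings (7.97% and 7.37%). Ms4a4b was called lower with the length covariate in both comparisons. The 23 of 25 and 24 of 25 NK and cytotoxic genes that were below 0 in Card9-/-5xFAD against Card9-/- and 5xFAD against WT had medians over the 25 of -1.01 and -0.85, where the medians of all genes were -0.15 in each. The count of genes called lower in Card9-/-5xFAD against Card9-/- depended on the setting. DESeq2 called 6 of the 50 it tested (4.82% of all genes were called in either direction), and leaving out the 4 libraries called 6 of 36 (16.7% of all genes), against 0 of 38 here (1.97%).

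Of 17 genes whose products bind or hold those of the 10 (among them a granule proteoglycan, granzyme inhibitors, MHC molecules and the adaptors of NK receptors), all passed the filter. In the 3 Card9 comparisons 0 of 17 passed the FDR in edgeR's test, with 1 lower and 0 higher at an unadjusted p under 0.05 in Card9-/- against WT, 1 and 0 in Card9-/-5xFAD against 5xFAD and 2 and 0 in the average, beside the shares of all genes given above. B2m and H2-D1, the light chain and a heavy chain of MHC class I, and Tyrobp, the adaptor DAP12, had the highest mean CPM, and none of these passed in any comparison.

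Markers of other CD11b+ and blood cells were summed in each library to stand beside these values. Beside the calls below, 0.0276% of all genes passed the FDR in the average over transgene status. In 5xFAD against WT 2.09% did, and in Card9-/-5xFAD against Card9-/- 1.97%. The 10 monocyte genes summed to 261.5 to 468.8 CPM in WT, 226.5 to 369.3 in Card9-/-, 135.4 to 270.0 in 5xFAD and 92.6 to 251.5 in Card9-/-5xFAD, and 1 of the 9 tested, Ly6i, was lower without Card9 on average (log2 fold change -2.36 ± 0.33, edgeR adjusted p = 0.0307). The neutrophil genes summed to 1098 to 3620, 1141 to 6314, 774 to 2107 and 495 to 5986 CPM in the same order of genotypes, with 0 of 10 past the FDR in any comparison. The 10 border-associated macrophage genes summed to 1323 to 1855, 1148 to 2084, 706 to 977 and 481 to 1916 CPM. Of these Mrc1, Lyve1 and F13a1 fell in 5xFAD against WT and Mrc1 in Card9-/-5xFAD against Card9-/-, and 0 of 10 passed in the Card9 comparisons. Of the 10 dendritic cell genes (188 to 297, 146 to 319, 135 to 184 and 109 to 194 CPM), the 6 red blood cell genes (6.31 to 133, 2.77 to 60.5, 2.18 to 47.0 and 1.18 to 68.5 CPM) and the 12 microglia genes (18320 to 38570, 21100 to 36570, 18430 to 37000 and 20670 to 33750 CPM), 9, 4 and 12 could be tested and none passed the FDR. The 10 B cell genes, of which 6 were tested, summed to 717 to 1246, 721 to 1048, 691 to 1246 and 558 to 1230 CPM, with Cd22 higher in both transgene comparisons. It is a sum carried by Ighm, at 636 to 805 CPM in the genotype means. Igkc (87.2 to 129 CPM) and Cd79b (44.5 to 62.2 CPM) were also present, while Ms4a1, Pax5 and Blk never exceeded 3 counts. The part of these cells in the levels of the NK and granule genes was not tested.

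The genes most like the 10 were found by the Spearman correlation, over the 16 libraries, of each of 14505 other genes with the summed CPM of the 10. Plac8, an interferon-inducible gene also used as a monocyte marker, was highest at 0.971, followed by Cmtm8 and S100a10 (0.947 each), Ear2 (0.935), S100a6, Pglyrp1 and Gm9733 (0.932 each), Ifitm6 (0.929), Klra7 (0.927) and Mcemp1 (0.924). Klra7, another Ly49 receptor gene, is on the NK list and Plac8 on the monocyte list, and the other 8 are on none of the lists. The lists are short, so a gene on none of them can still belong to one of these cell types. Over all genes the median was -0.0294, and 203 (1.4%) were over 0.8. The sum is carried by Ccl5, Gzma and Nkg7, and was highest in WT replicate 1 (709 CPM), 5xFAD replicate 1 (427 CPM) and WT replicate 3 (309 CPM). Card9-/- replicate 4 (304 CPM) came next. In the 4 libraries of low microglia sum it was 283.5 to 709 CPM, against 45.3 to 309 CPM in the other 12. The part of these 4 libraries in the correlations was not tested.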

How the data were processed

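RNA of CD11b+ brain cells was sequenced in 16 libraries, 4 per genotype, grouped by the genotype and replicate number in their titles. Per the labels and the study's methods, the authors used HISAT2 for alignment to mm10, SAMtools to handle the alignments and HTSeq for counting. They deposited whole-number read counts per gene symbol, without normalization, for 55385 genes, of which 25435 were at 0 in every library. Tool versions are not given in the sources used here.

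Counts were fitted in R 4.3.3 with edgeR 4.0.16 (TMM, filterByExpr with a minimum count of 10, quasi-likelihood test, 4 groups, 6 contrasts, Benjamini-Hochberg adjustment over the 14513 genes tested, FDR 0.1). The SE was taken from the change and its F statistic. DESeq2 1.42.0 was an alternative. CPM used TMM library sizes. Depth was 2970148 to 19333325 counts per library, and the detection floor of 3 counts covers counting error only. Gene positions and lengths came from GENCODE M21 (GRCm38) and promoters from RefSeq (GRCm38.p6). None of the 24 pairs of libraries within a genotype agreed within sampling noise (the smallest ratio of chi-square to its degrees of freedom was 6.28).

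On simulated counts for Card9-/-5xFAD against 5xFAD, with 14738 genes, edgeR called 2 of 67 genes changed 2-fold, 24 of 67 changed 4-fold, 55 of 66 changed 8-fold and 5 of 14538 unchanged. DESeq2, with 28561 genes, called 13 of 67, 40 of 67, 61 of 65 and 46 of 13961.

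The 10 genes and all gene lists (other T cell, other NK and cytotoxic lymphocyte, partners, B cell, neutrophil, monocyte, border-associated macrophage, dendritic cell, red blood cell and microglia genes) were chosen with earlier results of these data known. The rule for named genes took all 10, Card9, the 10 genes most correlated with the sum of the 10 and, from each other list, the genes past the FDR in any contrast and the 3 of highest mean CPM, of which not all are named, and some items are not reported here. A few further list genes (Trac, Trdc, Themis, Bcl11b, Foxp3, Cd3g, Cd8b1, Cd2, Trbc1, Ms4a1, Pax5, Blk, Tbx21 and the microglia genes other than P2ry12) were named after their values were seen. Alternatives were DESeq2 size factors, no filter, at least 10 counts in every library, DESeq2, only the groups compared, the replicate number as a block, FDR 0.05 and each library left out. For the sum of the 10 genes, the mean of log2(CPM + 1) and the sum without Ccl5 were also tried. A covariate for each library's slope on transcript length (lengths for 95.2% of genes tested), and leaving out the 4 libraries of lowest microglia sum, were chosen after seeing the data.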

Additional observations from a re-analysis of the deposited data

Results flagged for a closer look

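In groups of 4 libraries, a library was singled out when its gap to the nearest other, divided by the range of the group, was over Dixon's critical value. Of 36 groups examined, 8 held such a library, where chance gives about 1 in 20 of independent groups. These groups are not independent, since the sum of the 10 genes holds each of them, and the genes were chosen with their differences between libraries known, so nothing is read from the number. Of these, 6 were Card9-/- replicate 4, a library of low microglia sum and 3229322 counts. There Ccl5 was high at 248 CPM (20.9 to 38.5 in the other 3), Cd3d high at 2.94 CPM (0.296 to 0.600), Trbc2 high at 1.96 CPM (0.207 to 0.474) and the sum of the 10 genes high at 304 CPM (73.5 to 94.7). Cd3d and Trbc2 rest there on 9 and 6 counts, against 5 to 8 and 3 to 8 counts in the other 3, deeper libraries. In Card9-/- replicate 4 Gzmb was low at 2.29 CPM (5.81 to 5.92) and Ncr1 low at 0.654 CPM (4.44 to 5.09), from 7 and 2 counts. Ccl5 was also high in Card9-/-5xFAD replicate 4 at 224 CPM (18.95 to 41.9 in the other 3), and Gzma was low in Card9-/-5xFAD replicate 1 at 13.1 CPM (20.4 to 21.9). The first is also a library of low microglia sum, and the second is not. What sets these libraries apart was not tested.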

How the results depend on the processing

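The count of the 10 genes past the threshold, 0 in every comparison, stayed at 0 under all alternatives run for 4 comparisons, which were the interaction, Card9-/- against WT, Card9-/-5xFAD against 5xFAD and Card9-/-5xFAD against Card9-/-. In 5xFAD against WT it became 3 with the length covariate, while all genes called went from 304 to 1070. In the average over transgene status it became 1 without the filter on low counts (Gzma) and 1 with the replicate number as a block (Gzmb), and ranged from 0 to 1 with each library left out (Gzma passed without WT replicate 4 or 5xFAD replicate 4). The count of other T and NK genes, 2 in each transgene comparison, became 1 in both with at least 10 counts in every library. This setting leaves 8 of them to test, and called 1.67% of all genes in 5xFAD against WT and 1.44% in Card9-/-5xFAD against Card9-/-. In 5xFAD against WT it became 10 with the length covariate (2 higher, 8 lower) and 3 without the 4 libraries of low microglia sum (all genes 1144). In Card9-/-5xFAD against Card9-/- it became 8 with DESeq2, 12 with the length covariate, 8 without the 4 libraries and 3 with the replicate block (Tbx21 added), while all genes called went from 286 to 812, 907, 2394 and 340. It ranged from 2 to 4 with each library left out, the 4 being reached without Card9-/- replicate 4 or Card9-/-5xFAD replicate 4 (4.84% and 2.41% of all genes). The causes of these shifts were not tested. Same-numbered libraries of different genotypes had correlations of deviations of -0.71 to 0.734 over 24 pairs (15 over 0.1, median 0.141 against 0.0225 for other pairs), and 5 of 16 libraries were closest to their own number. Not every pair was over 0.1, so the numbers are not taken to pair the samples, and the replicate block changed no other call of the 10 genes. The fit on only the groups compared could not be run for the average and the interaction, which use all groups. Of 710 alternative fold changes of single genes, 698 stayed within 1 SD between replicates and 25 changed sign. Of the 25, 6 were in Card9 comparisons and none of those in Gzma, Gzmb, Nkg7, Klra1 or Ncr1. All of these alternatives reuse the same 16 libraries. The log2 ratio of the summed CPM of the 10, -1.14 in the average, ranged from -1.71 to -0.78, and it changed sign in 3 of 63 alternatives, all in Card9-/-5xFAD against Card9-/-. DESeq2 size factors moved the median change of all genes by -0.051 to 0.070. Depth limits Cd3e, Cd8a, Ncr1, Klra1, Cd3d and Trbc2, which had 3 or fewer counts in at least 1 library.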
